A study of Mus musculus with 109 samples.

Results

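The nuclear genes for the subunits of the oxidative phosphorylation complexes were followed in mouse retinas after intravitreal injection of the cytokines IL1A and TNF. Members were chosen by symbol among protein-coding genes of the count table (names that begin with Nduf and A, B, C, S or V with a number, Sdha to Sdhd, Uqcr, Cox4 to Cox8, or Atp5), and the rule itself uses no measured value. The rule took 84 of 37315 rows: 37 genes of complex I, 4 of complex II, 8 of complex III, 18 of complex IV and 17 of complex V. A small number of these are not structural subunits. Cox7a2l is a factor that joins complexes III and IV, Atp5s is a coupling factor of complex V, and Ndufa4, listed here with complex I by its name, is now counted with complex IV. Of the 84 members, 81 passed the filter on low counts in every fit, and Cox6a2, Cox7b2 and Cox8c did not.

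RNA-seq counts came from 109 whole retinas of 64 mice aged 2 to 4 months, C57BL/6J wild type (WT) or deficient in Sarm1 (Sarm1KO), with total counts of 30014757 to 79064488 per retina. At day 2 after injection, batch 1 held WT retinas given PBS (n = 31), TNF (n = 8), IL1A (n = 9) or IL1A+TNF (n = 10). WT retinas at day 14 (7 PBS from 6 mice, 6 TNF) and day 35 (6 PBS, 9 TNF) also belonged to batch 1. Batch 2, all at day 2, held 5 WT PBS, 6 WT IL1A+TNF, 6 Sarm1KO PBS and 6 Sarm1KO IL1A+TNF retinas. Both sexes were in every group, the Sarm1 deficiency was in the whole animal, and both eyes of a mouse were often used. The tissue is a mixture of neurons, glia and vessels, so fewer cells of a type and less RNA per cell cannot be told apart in any value below.

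Oxidative phosphorylation takes place in the inner mitochondrial membrane. Complexes I (NADH dehydrogenase) and II (succinate dehydrogenase) feed electrons through ubiquinone to complex III (cytochrome bc1), cytochrome c carries them to complex IV (cytochrome c oxidase), and the proton gradient built by complexes I, III and IV drives complex V (ATP synthase). Most subunits are made from nuclear genes, but a core set of complexes I, III, IV and V is encoded by mitochondrial DNA (mtDNA). Photoreceptors, whose inner segments are packed with mitochondria, are among the most energy-demanding cells of the body.

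Levels are given as CPM, counts scaled to library size with TMM factors. Where genes are compared with each other, CPM per kilobase of exon is used, with the length taken over all annotated exons of a gene together. That length can exceed the length of the transcript present, so orders between genes on this scale depend on it. In the 31 WT PBS retinas of day 2 the median member had 30.6 CPM per kilobase. Atp5b, the catalytic beta subunit of ATP synthase, was the most abundant at 207 ± 16.3 (SD, n = 31), followed by its alpha partner Atp5a1 at 172 ± 12.97. Next came the complex IV subunits Cox8a at 135 ± 17.0 and Cox4i1 at 97.2 ± 10.3, whose ranges overlapped (105 to 171 and 82.8 to 116). Their order rests on the exon length (619 and 1550 bases). Without it Cox4i1, at 151 CPM, was above Cox8a, at 83.8 CPM. Among complex I genes Ndufa4 was the highest (84.04 ± 11.2) and Ndufa4l2, its hypoxia-induced paralog, the lowest (1.34 ± 0.378). Complex II ran from the iron-sulfur subunit Sdhb (19.1) to the flavoprotein Sdha (81.5), and complex III from Uqcrq (20.96) to Uqcrh (71.1). Complex medians lay close together, at 26.3, 29.8, 42.8, 34.1 and 37.7 CPM per kilobase for complexes I to V.

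The tissue-restricted paralogs sat far below their ubiquitous partners on the per-kilobase scale. Cox8b, the heart and muscle form, measured 3.91 against 135 for Cox8a. Cox7a1, also a muscle form, measured 3.15 against 62.6 for Cox7a2, and Cox6b2, a form known from testis, measured 3.55 against 86.4 for Cox6b1. Cox4i2, the form of Cox4 known from lung and from pericytes, was the exception at 17.3 against 97.2 for Cox4i1. The muscle form Cox6a2 had no count in 13 of 109 retinas and stayed under 1 CPM in all of them. Cox7b2 had no count in 49 retinas and Cox8c in 108, where a count of 0 allows up to 3 counts per retina. In complex V the 3 genes for the same c-ring protein differed in level, with Atp5g3 at 58.8, Atp5g2 at 22.4 and Atp5g1 at 10.1 CPM per kilobase. The order of Atp5g2 and Atp5g1 rests on the exon length (1675 and 4912 bases). Without it Atp5g1, at 49.6 CPM, was above Atp5g2, at 37.6 CPM.

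**Figure D1:**
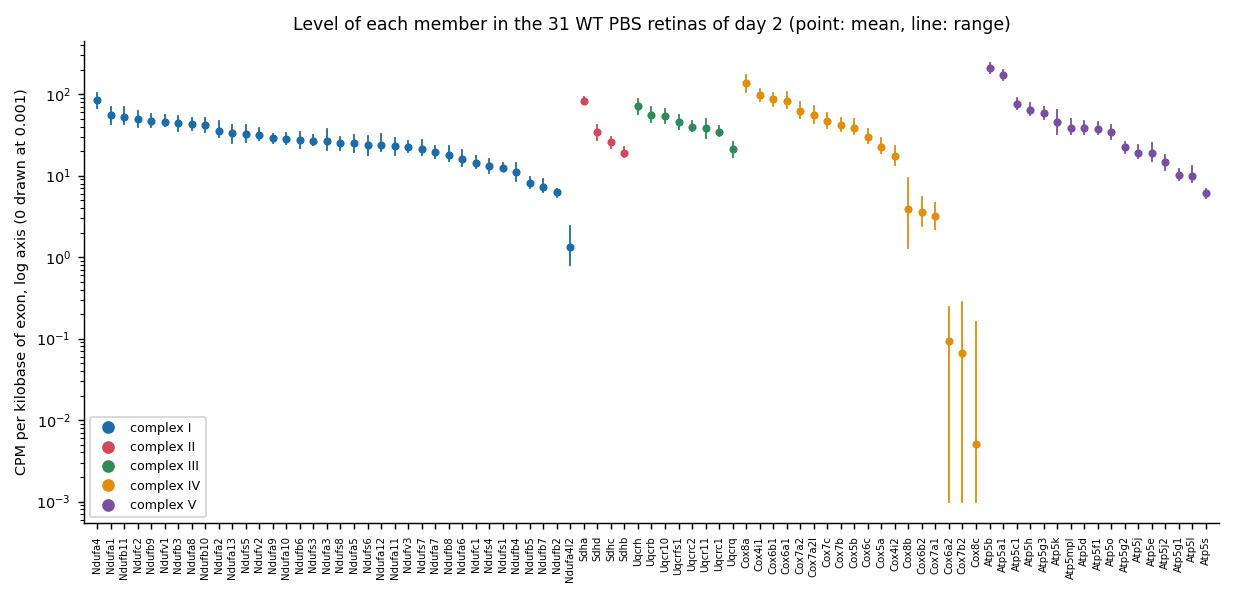
Level of 83 of the 84 members in the 31 WT PBS retinas of day 2, in CPM per kilobase of exon on a log axis, ordered within complexes I to V. Points are means and lines run from the lowest to the highest retina, with 0 drawn at 0.001. Atp5b at 207 and Atp5a1 at 172 stand at the top, and Cox6a2, Cox7b2 and Cox8c lie under 1.

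Among the 31 PBS retinas the coefficient of variation of a member had a median of 10.7%, from 4.93% for Sdha to 52.1% for Cox8b. Much of this spread was shared. The first principal component of the 81 tested members carried 54.8% of their variance, and 79 of the 81 loaded on it with one sign. A single PBS retina had between 1 and 80 of the 81 members above the group's medians (median 42). Such swings of the whole group between retinas of 1 treatment are the background against which the injected groups stand. The IL1A+TNF retinas of batch 1 had 4 to 62 members above those medians (median 38), and the 2 groups overlapped.

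IL1A+TNF changed a minority of the members at day 2, and by small amounts. Of 81 tested members, 21 passed an adjusted p of 0.05 (limma, Benjamini-Hochberg over all 19548 genes), 2 of them higher and 19 lower. That is 25.9% of the members, where 50.4% of all genes tested were called in the same comparison, with 24.9% higher and 25.5% lower. The median log2 fold change was -0.03 over the members and -0.02 over all genes, and 66 of the 81 members had a 95% interval within 0.25 of 0. By complex, 1 gene was higher and 9 lower of 37 in complex I, 0 and 1 of 4 in complex II, 0 and 1 of 8 in complex III, 0 and 6 of 15 in complex IV, and 1 and 2 of 17 in complex V. The direction of the small changes rested on the scaling. With mouse as a fixed block, 3 members were higher and 5 lower. That fit took the 23 mice with a PBS and a treated eye, of any treatment. Only those whose treated eye had IL1A+TNF inform this effect, and IL1A+TNF mice 59734 and 60579 gave no PBS eye. With library totals in place of TMM, 14 members were higher and 8 lower, and the median over all genes moved from -0.02 to 0.05. The shares of all genes above belong to the TMM fit with mouse as a random block. The counts with the fixed block and with library totals have no such share beside them. Under TMM, library totals and DESeq2 size factors alike, 2 members were higher and 8 lower: Ndufa3 and Atp5g2, and Ndufb2, Ndufa10, Cox6b2, Cox4i2, Atp5s, Ndufa4, Cox7a1 and Cox8b. Of these 10, Ndufa3, Ndufb2, Ndufa10, Cox6b2, Cox7a1 and Cox8b also passed with the fixed block. Cox4i2 (-0.25, adjusted p = 0.072), Ndufa4 (-0.11, adjusted p = 0.26), Atp5s (-0.11, adjusted p = 0.109) and Atp5g2 (0.15, adjusted p = 0.079) did not, and neither did any of the other 11 called members.

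Ndufb2, an accessory subunit in the membrane arm of complex I, had the smallest p of the group. Its level was 30.8, 36.1 and 38.9 CPM in the lowest, median and highest of the 31 PBS retinas, and 28.1, 29.8 and 33.8 in the 10 IL1A+TNF retinas. All 10 treated retinas lay below the PBS mean, although the ranges overlapped, and the log2 fold change was -0.26 (SE 0.034, adjusted p = 5.960e-09). Ndufa10, an accessory subunit of the same arm, ran from 69.0 through 79.2 to 91.3 CPM after IL1A+TNF and from 81.7 through 91.4 to 112 after PBS, and fell by 0.24 on the log2 scale (SE 0.044, adjusted p = 9.319e-06). Ndufa3, another accessory subunit, went the other way. It measured 26.4, 32.8 and 46.2 CPM (lowest, median and highest) after IL1A+TNF against 20.995, 26.3 and 37.9 after PBS, a log2 fold change of 0.31 (SE 0.059, adjusted p = 1.448e-05). Within complex I, then, accessory subunits were called in both directions.

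The catalytic core subunits were mostly not called. Ndufs3, a core subunit of the peripheral arm of complex I, fell by 0.14 on the log2 scale (adjusted p = 2.124e-04) but did not pass with library totals. Ndufs1 and Ndufv1, the core subunits that take electrons from NADH, had log2 fold changes of -0.06 and -0.06 with adjusted p of 0.052 and 0.105. Sdha fell by 0.06 (adjusted p = 0.039), with a value of 0.01 when library totals set the scale, and Sdhb was at 0.08 (adjusted p = 0.088). Neither Uqcrc1 (0.04, adjusted p = 0.42) nor the Rieske protein Uqcrfs1 (-0.06, adjusted p = 0.34) of complex III passed, while the hinge protein Uqcrh fell by 0.17 (adjusted p = 0.0068). In complex IV, Cox5a was at -0.01 (adjusted p = 0.85) and Cox4i1 at 0.0015 (SE 0.052, adjusted p = 0.98), with Cox4i1 at 129, 150 and 170 CPM (lowest, median, highest) against 128, 149 and 180 after PBS. Cox6c fell by 0.16 (adjusted p = 0.0056). Other called members, each lower under TMM and none with library totals, were the complex I subunits Ndufa11 (-0.15, adjusted p = 0.012), Ndufb3 (-0.15, adjusted p = 0.017), Ndufs7 (-0.13, adjusted p = 0.015) and Ndufv3 (-0.10, adjusted p = 0.033), and Cox7a2l (-0.15, adjusted p = 0.011).

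Of the 17 complex V genes, Atp5g2 was higher and Atp5b and Atp5s were lower. Their summed level was 2120, 2354 and 2537 CPM (lowest, median, highest) after IL1A+TNF against 2159, 2490 and 2862 after PBS, and the groups overlapped. Atp5b ran from 721 through 807 to 899 CPM after IL1A+TNF and from 770 through 883 to 1032 after PBS, and fell by 0.12 on the log2 scale (SE 0.041, adjusted p = 0.013), but was at -0.05 with the fixed block (adjusted p = 0.49). Atp5a1, its partner in the catalytic head, was at -0.04 (adjusted p = 0.43). Of the 3 c-ring genes Atp5g2 rose by 0.11 (adjusted p = 0.043), with 35.8, 40.3 and 46.0 CPM against 31.8, 37.9 and 43.3 after PBS. Atp5g1 (-0.02, adjusted p = 0.61) and Atp5g3 (-0.04, adjusted p = 0.50) did not pass. Atp5s, the coupling factor, fell by 0.17 (adjusted p = 6.345e-04).

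**Figure D2:**
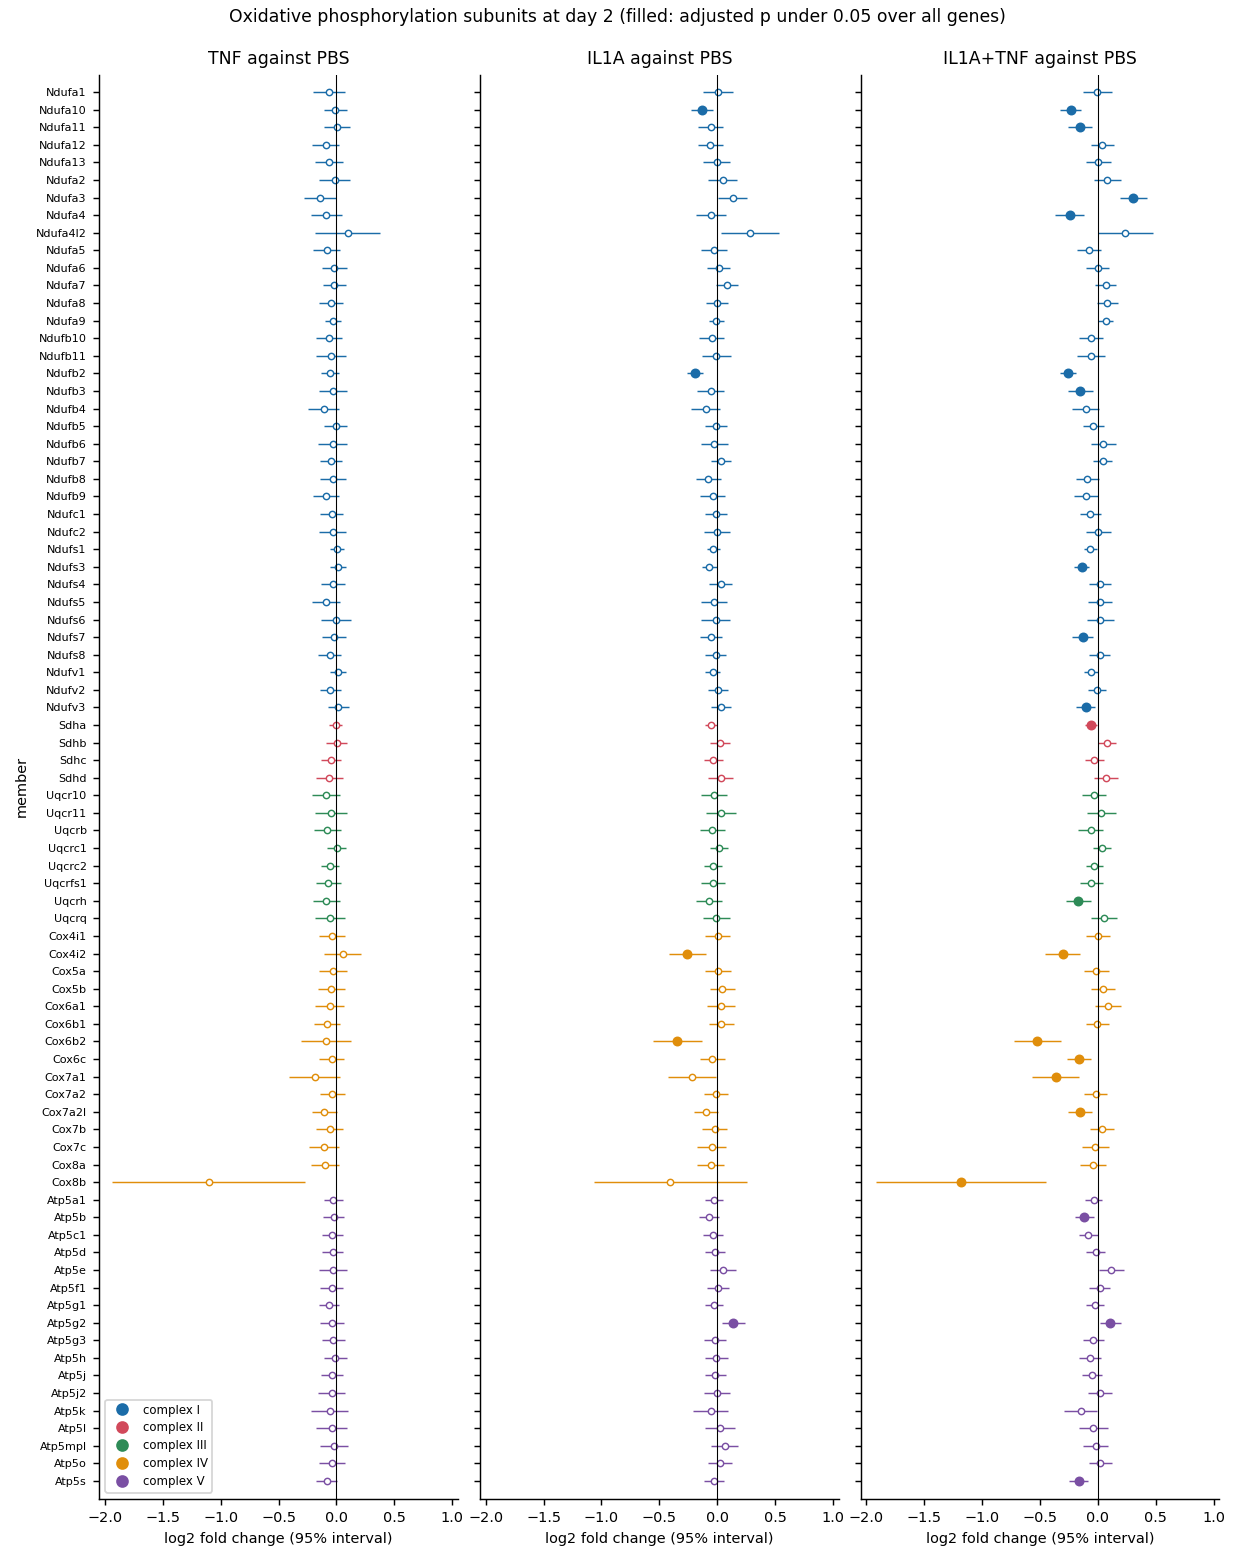
Log2 fold change with its 95% interval for 80 of the 81 tested members at day 2, with panels for TNF, IL1A and IL1A+TNF against the same 31 PBS retinas and members ordered by complex. Filled points passed an adjusted p of 0.05 over all genes. None is filled for TNF, 5 for IL1A and 20 for IL1A+TNF, and most points lie within 0.25 of 0.

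The largest falls were in complex IV paralogs of restricted expression, and their ubiquitous partners did not pass. Cox8b measured 0.178, 0.416 and 1.76 CPM (lowest, median, highest) after IL1A+TNF against 0.460, 1.37 and 3.35 after PBS, a log2 fold change of -1.18 (SE 0.37, adjusted p = 0.0057), while Cox8a was at -0.04 (adjusted p = 0.54). Cox6b2 measured 1.96, 2.59 and 3.66 CPM against 2.69, 3.95 and 6.01 and fell by 0.52 (SE 0.10, adjusted p = 2.185e-05), with Cox6b1 at -0.0034 (adjusted p = 0.96). Cox7a1 fell by 0.37 (adjusted p = 0.0018), with Cox7a2 at -0.02 (adjusted p = 0.77). Cox4i2 measured 9.32, 10.2 and 14.7 CPM against 10.6, 13.4 and 18.2 and fell by 0.30 (SE 0.075, adjusted p = 5.619e-04), a call it lost with the fixed block. Ndufa4 measured 79.2, 99.2 and 111 CPM against 92.7, 110 and 144 and fell by 0.24 (adjusted p = 8.534e-04), a call also lost with the block, and its paralog Ndufa4l2 was at 0.24 (adjusted p = 0.094). The differences between paralogs were not tested.

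Some of these paralogs are known from other cell types, and markers of those cells were checked beside them, against the 50.4% of all genes called in this comparison. Of 5 tested markers of skeletal and extraocular muscle, Mylpf, Mb and Actn3 were lower and none was higher. The summed level of the 11 listed muscle markers was 4.74 to 8.31 CPM in the PBS retinas and 4.30 to 6.19 in the IL1A+TNF retinas, and the fast myosins Myh1, Myh2 and Myh4 had no count in 72, 97 and 97 of 109 retinas. Of 8 pericyte markers Pdgfrb and Cspg4 were higher and Vtn lower, with summed levels of 750 to 993 CPM after PBS and 589 to 893 after IL1A+TNF. Vtn made up most of that sum, with a median of 657 CPM over the 109 retinas, where the next highest, Rgs5, had 123. The lower sum therefore mainly follows Vtn and does not describe the other pericyte markers. Photoreceptor markers had larger median changes than the members. All 6 cone markers were lower (median log2 fold change -1.13, sums of 763 to 1143 CPM against 223 to 867) and 8 of 9 rod markers were lower (median -0.41, sums of 37826 to 57949 CPM against 25034 to 44013). No photoreceptor or pericyte marker was at 0 in any retina. Their part in the members' changes was not tested. The remaining marker lists gave 6 of 6 amacrine, 5 of 6 bipolar, 7 of 8 retinal ganglion cell (RGC) and 4 of 5 pigment epithelium markers lower, 4 of 5 microglial and 2 of 5 neutrophil markers higher, 2 higher and 2 lower of 5 for Müller glia, and 0 of 5 for lens and 0 of 5 for erythrocytes.

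Most transcripts encoded by mtDNA were lower after IL1A+TNF at day 2, against the same background of all genes. Of 13, 11 were lower and 0 higher, with a median log2 fold change of -0.23. mt-Co1, the catalytic subunit of complex IV, measured 6959, 8597 and 10045 CPM (lowest, median, highest) after IL1A+TNF against 8186, 10014 and 12511 after PBS, and all 10 treated retinas lay below the PBS mean (log2 fold change -0.22, SE 0.053, adjusted p = 4.243e-04). mt-Nd5 fell by 0.24 (adjusted p = 1.933e-05), mt-Nd6 by 0.30 (adjusted p = 8.787e-06) and mt-Cytb of complex III by 0.25 (adjusted p = 5.128e-05), whereas mt-Nd3 and mt-Atp8 did not pass. Summed over the 13, the level was 21310, 24836 and 29849 CPM against 24086, 29455 and 37513. These ranges overlapped, as did those of each mtDNA transcript. The sum of the 84 nuclear members was 5252, 5880 and 6255 CPM against 5340, 6107 and 7064. With library totals 8 of the mtDNA transcripts were lower. The small counts of mt-Co2, mt-Co3 and mt-Atp6, far under those of mt-Co1, are uncertain because nuclear copies nearly identical to mtDNA can split reads. Those of mt-Nd3, mt-Nd4l and mt-Atp8 were also far under mt-Co1 and are no less uncertain. The uncertain transcripts thus include mt-Nd3 and mt-Atp8, which did not pass, and some of the 11 called lower.

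**Figure D3:**
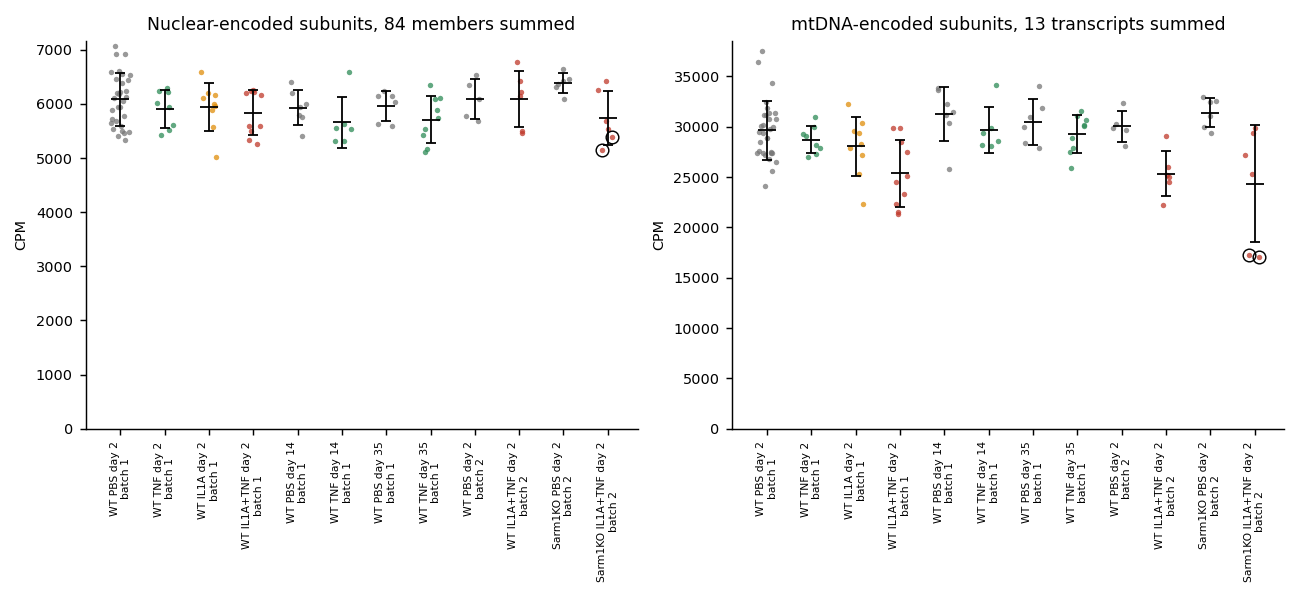
Summed CPM of the 84 nuclear members (left) and of the 13 mtDNA-encoded transcripts (right) in every retina, by group. Points are retinas, bars the mean and SD, and rings mark 2 Sarm1KO IL1A+TNF retinas that stood apart. The IL1A+TNF retinas of batch 1 reach 29849 CPM at most for the mtDNA sum, where PBS retinas reach 37513, but the ranges of those groups overlap. The nuclear sums of those groups overlap over most of their range.

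Genes that serve the same machinery were read from lists, against the 24.9% of all genes called higher and the 25.5% called lower. Of 46 tested assembly factors, which build the complexes without being part of them, 14 rose and 8 fell, 22 in all where 50.4% of all genes were called. Ndufaf6, a complex I assembly factor, rose by 0.56 (SE 0.071, adjusted p = 1.585e-09), Sdhaf2, which attaches flavin to Sdha, rose by 0.23 and the heme A synthase Cox15 by 0.12. Sdhaf4 fell by 0.35 and Lyrm7, which delivers the Rieske protein to complex III, fell by 0.32. In the tricarboxylic acid cycle 1 of 15 genes rose (Ogdh, 0.08) and 3 fell (Idh3a, Pdhb and Sucla2). Of 7 tested genes listed as subunits and carriers that the naming rule leaves out, Higd1a alone passed, and it fell by 0.46. Higd1a also stands in the list of hypoxia-induced genes and is counted in both. Ndufab1, Cyc1, Cycs, Atpif1, Usmg5 and Higd2a did not pass. Of 10 tested hypoxia-induced genes 8 fell, among them Bnip3 by 0.88, Pdk1, which holds back pyruvate dehydrogenase, by 0.74, Vegfa by 0.57 and the glucose transporter Slc2a1 by 0.29. Ndufa4l2, itself such a gene, was not among those that fell.

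Promoter sequence was examined for the members that moved and for those that hold a site. RefSeq windows of 250 bases before to 50 after the start (GRCm38.p6) were matched by symbol to 66 of the 84 members. Exact matches on either strand were sought for NRF1 (GCGCATGCG), GABPA (CCGGAAG), YY1 (AAGATGGCG) and ERRA (TCAAGGTCA), factors known for mitochondrial gene control. The NRF1 letters stood in 8 of 66 members (12.1%) and in 1.95% of 27025 genes, and the GABPA letters in 16 (24.2%) and 9.93%. YY1 gave 7 (10.6%) and 1.64%, and ERRA 2 (3.0%) and 0.466%. None of the motifs was found in 39 members. The counts fell when only the 250 bases before the start were searched. NRF1 then gave 6 members (9.1%) and 1.64% of genes, and GABPA 12 (18.2%) and 7.83%. YY1 gave 1 (1.5%) and 0.71%, and ERRA 1 (1.5%) and 0.422%. The 100 bases upstream of the start are shown 5′ to 3′ on the gene's strand for 4 called members, none of which hold these letters there. They are Ndufb2, with the smallest p, Ndufa3, with the largest rise, and Cox8b and Cox6b2, with the largest falls: Ndufb2 at chr6:39592465-39592564 (plus), Ndufa3 at chr7:3617273-3617372 (plus), Cox8b at chr7:140900447-140900546 (minus) and Cox6b2 at chr7:4753095-4753194 (minus).
Ndufb2: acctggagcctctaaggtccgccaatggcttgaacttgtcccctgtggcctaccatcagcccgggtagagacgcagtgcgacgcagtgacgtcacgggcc
Ndufa3: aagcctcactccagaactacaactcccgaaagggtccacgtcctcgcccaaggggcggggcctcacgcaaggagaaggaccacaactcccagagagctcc
Cox8b: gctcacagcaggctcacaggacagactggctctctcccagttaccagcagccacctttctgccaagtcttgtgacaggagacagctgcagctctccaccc
Cox6b2: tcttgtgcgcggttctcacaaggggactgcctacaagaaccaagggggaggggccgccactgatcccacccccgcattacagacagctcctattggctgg

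For comparison, called members with a match are Atp5g2 at chr15:102671048-102671147 (minus) and Ndufa11 at chr17:56717662-56717761 (plus) for NRF1, and Ndufs3 at chr2:90904722-90904821 (minus) and Uqcrh at chr4:116075071-116075170 (minus) for GABPA. Capitals mark the match, which for NRF1 covers overlapping matches on both strands. Atp5g2 rose and Ndufa11, Ndufs3 and Uqcrh fell after IL1A+TNF under TMM, so members with a match were called in both directions there. These falls did not pass with library totals, and none of these members, Atp5g2 included, passed with the fixed block. Ndufs7, also called lower under TMM, held the YY1 letters in its window and is not shown.
Atp5g2: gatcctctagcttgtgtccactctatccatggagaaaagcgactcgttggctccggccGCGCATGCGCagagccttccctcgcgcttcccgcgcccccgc
Ndufa11: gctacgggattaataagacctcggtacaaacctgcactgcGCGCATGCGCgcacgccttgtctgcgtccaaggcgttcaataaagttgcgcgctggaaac
Ndufs3: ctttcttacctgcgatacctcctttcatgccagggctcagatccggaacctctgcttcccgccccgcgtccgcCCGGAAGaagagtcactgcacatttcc
Uqcrh: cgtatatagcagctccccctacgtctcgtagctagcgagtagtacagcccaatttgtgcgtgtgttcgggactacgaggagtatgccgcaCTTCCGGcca

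Injection of IL1A alone gave fewer calls among the members. Of 81, 5 passed (6.17%), 1 higher and 4 lower, where 21.4% of all genes passed, 12% higher and 9.45% lower. Ndufb2 measured 27.2, 30.7 and 34.6 CPM in the lowest, median and highest of 9 IL1A retinas, all 9 below the PBS mean, and fell by 0.19 on the log2 scale (SE 0.036, adjusted p = 3.152e-05). Cox6b2 fell by 0.35 (SE 0.11, adjusted p = 0.012), Cox4i2 by 0.26 (SE 0.080, adjusted p = 0.013) and Ndufa10 by 0.13 (adjusted p = 0.032), and Atp5g2 rose by 0.14 (adjusted p = 0.027). Each of these was also called for IL1A+TNF, against the same PBS retinas. With mouse as a fixed block, for which no share of all genes is given, 0 were higher and 3 lower. Cox6b2 (-0.32, adjusted p = 0.088) and Atp5g2 (0.10, adjusted p = 0.42) no longer passed. Of the mtDNA transcripts 0 passed by limma (1 at an unadjusted p under 0.05, 0 by edgeR and 0 by DESeq2), and their sums ran from 22327 through 28312 to 32216 CPM.

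No member passed for TNF alone at day 2 by limma (2 at an unadjusted p under 0.05, and 0 by edgeR and 0 by DESeq2), where 0.655% of all genes did. The smallest adjusted p was 0.37, for Cox8b at a log2 fold change of -1.11, and 76 of 81 members had an interval within 0.25 of 0. IL1A+TNF against IL1A gave 0 members by limma (4 at an unadjusted p under 0.05, 0 by edgeR and 0 by DESeq2) and 10.1% of all genes, with the smallest adjusted p at 0.084 for Atp5s. In the test of whether IL1A and TNF together differ from the sum of each, 3.6% of all genes passed and 0 members (3 at an unadjusted p under 0.05, 1 by edgeR and 1 by DESeq2). Ndufa3 came closest there, at 0.31 (SE 0.10, adjusted p = 0.069). Its log2 fold changes were -0.14 for TNF (adjusted p = 0.63) and 0.13 for IL1A (adjusted p = 0.13), neither of which passed. Between female and male retinas of day 2, 0 members passed by limma (3 at an unadjusted p under 0.05, 0 by edgeR and 0 by DESeq2), and 0.363% of all genes.

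TNF was also followed to day 14 and day 35. No member was called at either time by limma, with 6 at an unadjusted p under 0.05 at each and 0 by edgeR and 0 by DESeq2 at each, and 0% of all genes passed at day 14 and 0% at day 35. The intervals were narrow for most genes, with 71 of 81 members at day 14 and 77 of 81 at day 35 having a 95% interval within 0.25 of 0. Members above the medians of the day 2 PBS retinas numbered 4 to 69 of 81 in single TNF retinas of day 14 and 1 to 59 at day 35. Ndufb2 stood at 35.2, 38.2 and 42.2 CPM (lowest, median, highest) in TNF and 34.7, 38.3 and 41.9 in PBS retinas at day 14, and at 37.2, 44.3 and 51.0 against 38.5, 43.6 and 53.2 at day 35. Atp5b ran from 785 through 791 to 973 CPM in TNF and from 789 through 872 to 979 in PBS retinas at day 14 (log2 fold change -0.07, adjusted p = 0.90). At day 35 Cox8b measured 0.126, 0.187 and 0.608 CPM against 0.187, 0.456 and 0.695 (log2 fold change -0.61, adjusted p = 0.89). Each of these pairs of groups overlapped. For the members above the day 2 medians, PBS retinas of the same days had 5 to 55 and 6 to 45, so the groups overlapped there too.

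**Figure D4:**
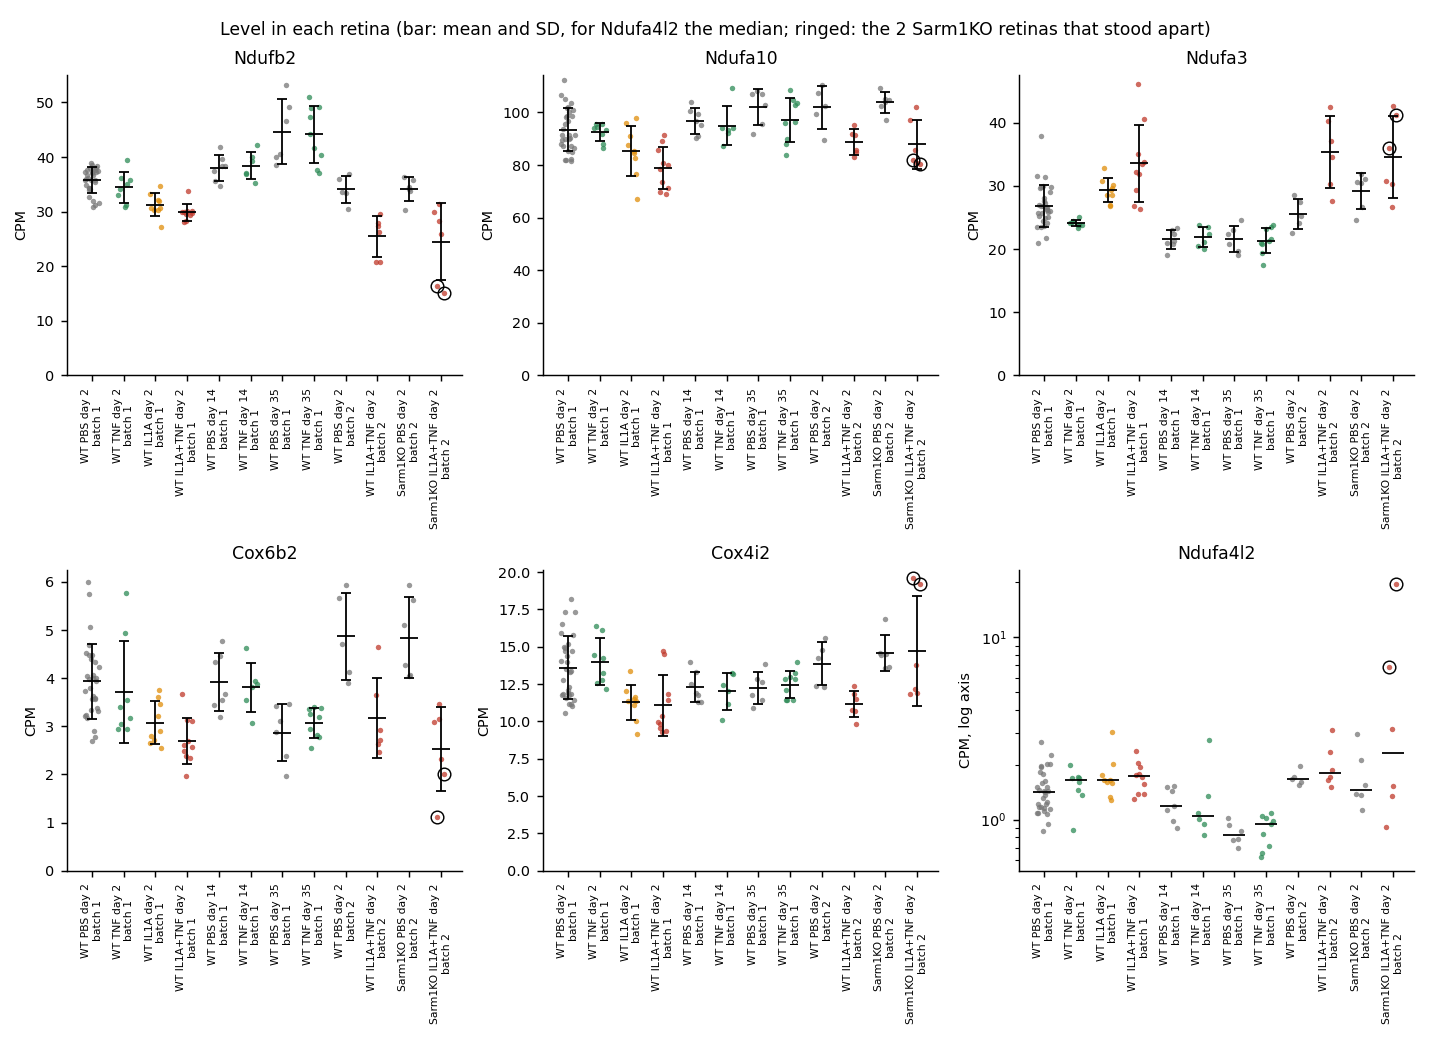
CPM of Ndufb2, Ndufa10, Ndufa3, Cox6b2, Cox4i2 and Ndufa4l2 in each of the 109 retinas by group, with mean and SD as bars (for Ndufa4l2, on a log axis, the median). Ndufb2 lies at 28.1 to 33.8 in IL1A+TNF and 30.8 to 38.9 in PBS retinas of batch 1 at day 2. Rings mark 2 Sarm1KO IL1A+TNF retinas that stood apart, with Ndufa4l2 at 6.87 and 19.7.

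Several members differed between PBS retinas of different days. Over days 2, 14 and 35, 9 of 81 members passed (11.1%), where 36.2% of all genes did. From day 2 to day 35, 2 were higher and 7 lower, against 32.8% of all genes called, 15.4% higher and 17.4% lower. Ndufb2 stood at 38.5, 43.6 and 53.2 CPM (lowest, median, highest) at day 35 against 30.8, 36.1 and 38.9 at day 2. It was higher by 0.33 on the log2 scale (SE 0.046, adjusted p = 4.898e-07). All 6 retinas of day 35 lay above the day 2 mean, although the ranges overlapped. Ndufa3 stood at 19.1, 21.6 and 24.6 CPM and was lower by the change of -0.30 (SE 0.072, adjusted p = 0.0011). Ndufa4l2 (-0.74, adjusted p = 0.0017), Cox8b (-1.59, adjusted p = 0.022), Cox6b2 (-0.44, adjusted p = 0.0077) and Atp5g2 (-0.23, adjusted p = 0.0023) were lower too. From day 2 to day 14, 19.2% of all genes passed, 8.68% higher and 10.5% lower, and of the members only Ndufa3 did, at 19.0, 21.3 and 23.4 CPM (log2 fold change -0.30, adjusted p = 0.0012). Both eyes of mouse 59710 are among the 7 PBS retinas of day 14, and 2 members (Ndufa3 and Ndufa8) passed without its right eye and 1 (Ndufa3) without its left. With library totals the members called were 27 at day 35, 26 of them lower, and 7 lower at day 14. The shares of all genes above belong to the TMM fit, so these counts have none beside them. Rod markers were higher at day 35 than at day 2 in 8 of 9 cases and microglial markers lower in 5 of 5. Some markers of amacrine cells, RGCs, Müller glia, cones, bipolar cells, pericytes, neutrophils and muscle also passed over days 2, 14 and 35. The differences between days were thus not limited to rods and microglia. The part of any marker list in the members' changes was not tested. Age, time since injection and recovery from it cannot be told apart.

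The Sarm1 comparison was checked first by Sarm1 itself, the gene of an NAD-consuming enzyme of axon degeneration. The WT PBS retinas of batch 2 measured 106, 108, 112, 124 and 126 CPM, and the Sarm1KO PBS retinas 37.3, 44.3 and 53.2 (lowest, median, highest). The groups did not overlap. In the fit of both batches, which also holds the WT PBS retinas of batch 1, the log2 fold change was -1.41 (SE 0.080, adjusted p = 2.298e-24). After IL1A+TNF, Sarm1 measured 26.2 to 46.8 CPM in Sarm1KO and 84.1 to 110 in WT retinas. Between Sarm1KO and WT PBS retinas 0 members passed by limma (1 at an unadjusted p under 0.05, 0 by edgeR and 0 by DESeq2), where 0.0397% of all genes did, and 56 of 81 members had an interval within 0.25 of 0. Ndufb2 was at 30.2, 34.3 and 36.4 CPM (lowest, median, highest) in the Sarm1KO PBS retinas and at 30.5, 33.4, 33.6, 35.9 and 36.9 in the 5 WT PBS retinas of batch 2, which overlapped. Its log2 fold change in the fit of both batches was 0.07 (adjusted p = 0.99).

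In the Sarm1KO IL1A+TNF group, the left eyes of mice 61924 and 61926 stood apart. Their summed RGC markers were 108 and 88.6 CPM where the other 4 retinas had 297 to 690. Amacrine markers summed to 125 and 138 CPM and bipolar markers to 300 and 283, where every other retina of the series had at least 371 and at least 693. Their mtDNA sums, 17280 and 17009 CPM, were the lowest in the series, and Ndufa4l2 was at 6.87 and 19.7 CPM. Counts of this group are therefore given with and without these 2 retinas, a choice made after seeing the data.

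With all 6 retinas, IL1A+TNF against PBS in Sarm1KO gave 28 members (34.6%), 2 higher and 26 lower, where 43.5% of all genes passed, 21.3% higher and 22.2% lower. The median log2 fold change was -0.13 over the members and 0.01 over all genes, and library totals gave 2 higher and 12 lower. Without the 2 retinas, 5 members were lower and 0 higher, where 13% of all genes passed, 6.21% higher and 6.76% lower. Among them were Cox6b2 (-0.68, adjusted p = 0.0033), Ndufb2 (-0.25, adjusted p = 0.013), Cox8b (-1.91, adjusted p = 0.030) and Atp5s (-0.20, adjusted p = 0.038). With all 6 the values were -0.97 for Cox6b2, -0.50 for Ndufb2 and -1.96 for Cox8b. Ndufa4l2 turned from 0.89 (adjusted p = 0.025) to -0.12 (adjusted p = 0.80). Of the 13 mtDNA transcripts, 10 were lower with all 6 retinas and 0 passed without the 2 by limma (4 at an unadjusted p under 0.05). In batch 2 alone 16 members were lower with all 6 retinas, and 0 passed without the 2 by limma (11 at an unadjusted p under 0.05). The shares of all genes called above belong to the TMM fits of both batches. The counts for batch 2 alone and for library totals therefore have no share to be read against. The ranges of 2 of the 84 members, Cox6b2 and Cox7a2l, did not overlap between the treated and the PBS retinas of Sarm1KO, both with all 6 and without the 2, where 5.17% and 6.09% of all genes did not overlap.

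**Figure D5:**
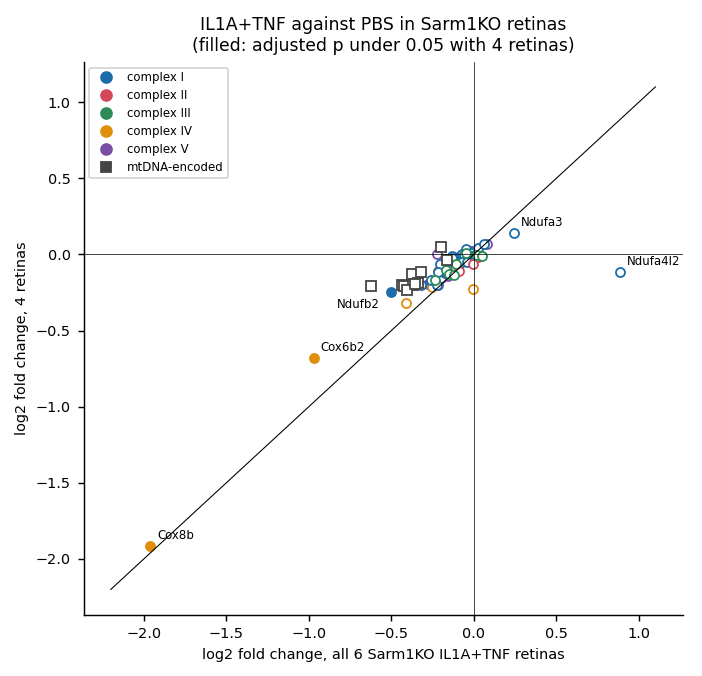
Log2 fold change of IL1A+TNF against PBS in Sarm1KO retinas with all 6 treated retinas (horizontal) and with the 4 left when 2 that stood apart are taken out (vertical), for 80 of the tested members and the mtDNA-encoded transcripts. Filled symbols passed an adjusted p of 0.05 with 4 retinas, and the diagonal marks equal values. Most points lie between the diagonal and 0, and Ndufa4l2 changes sign, from 0.89 to -0.12.

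WT retinas of both batches together gave 27 members for IL1A+TNF against PBS (33.3%), 8 higher and 19 lower, where 54.8% of all genes passed, 27.8% higher and 27% lower. Library totals gave 26 higher and 8 lower, batch 2 alone 3 higher and 1 lower, and mouse as a fixed block 7 higher and 10 lower. The shares of all genes belong to the main fit, and these alternative counts have none beside them. Ndufb2 fell by 0.29 (adjusted p = 2.067e-07), Ndufa10 by 0.22 and Cox6b2 by 0.55, and Ndufa3 rose by 0.35 (adjusted p = 2.747e-07). In batch 2 the WT IL1A+TNF retinas had Ndufb2 at 20.9, 26.9 and 29.6 CPM, all below the lowest of the 5 WT PBS retinas, 30.5. Ndufb2 was the only 1 of the 84 members whose ranges did not overlap between these groups of WT retinas, where 21.7% of all genes did not overlap.

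Between Sarm1KO and WT retinas after IL1A+TNF, 14.8% of all genes passed, 4.04% higher and 10.8% lower, and 1 member did. Cox4i2 measured 11.8, 12.96 and 19.6 CPM (lowest, median, highest) in Sarm1KO and 9.86, 11.1 and 12.4 in WT retinas of batch 2. In the fit of both batches, which also holds the WT retinas of batch 1, its log2 fold change was 0.38 (SE 0.10, adjusted p = 0.0090). Without the 2 retinas it was 0.16 (adjusted p = 0.50), and in batch 2 alone 0.39 (adjusted p = 0.13). Without them 0.898% of all genes passed, 0.122% higher and 0.776% lower, and 0 members by limma (0 at an unadjusted p under 0.05). Of 10 hypoxia-induced genes 8 were higher in Sarm1KO with all 6 retinas, and without the 2 none passed by limma (5 at an unadjusted p under 0.05). Summed over these 10 genes, the 2 retinas had 1105 and 1587 CPM, the other 4 had 665 to 994 and the WT retinas 678 to 880. Whether the effect of IL1A+TNF differs between genotypes was tested as an interaction, which 8.75% of all genes passed and 0 members by limma (10 at an unadjusted p under 0.05, 1 by edgeR and 1 by DESeq2). Cox4i1 came closest (adjusted p = 0.12). Without the 2 retinas 0% of all genes and 0 members passed by limma (0 members at an unadjusted p under 0.05).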

How the data were processed

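PolyA RNA of whole retinas was sequenced 150 bp paired-end. The deposited values are raw counts of read pairs per gene, which the authors made with STAR 2.7.9a on mm10 and featureCounts of Subread 2.0.1. The strand setting and annotation release are not given in the sources used here. Genes were named from GENCODE M21. Groups and days followed the sample labels. Counts were scaled by TMM (edgeR 4.0.16), weighted by voom and tested in limma 3.58.1 (R 4.3.3) with sex as a covariate and mouse as a random block, because both eyes of a mouse share an animal. The within-mouse correlation was estimated in 2 rounds. A batch term was added for the 81 retinas of the Sarm1 fit, and the fit of the PBS days, 44 retinas of 43 mice, had no block. Genes passed filterByExpr at a minimum count of 10, and p-values were adjusted by Benjamini-Hochberg over all genes tested, at 0.05. DESeq2 1.42.0 and edgeR's quasi-likelihood test were alternatives. Fits were tested on simulated data.

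The members' rule (which uses symbols only), the gene lists and the marker lists (rod, cone, bipolar, amacrine, RGC, Müller glia, microglia, neutrophil, pericyte, muscle, pigment epithelium, lens, erythrocyte, assembly factors, tricarboxylic acid cycle, hypoxia-induced, subunits outside the naming rule) were chosen with earlier results of these data known. Members were named by role (core subunits, paralogs, c-ring genes, members that are not subunits) and, per comparison, by the smallest adjusted p in each complex and the largest changes. The deviations of the 2 eyes of a mouse from their group means correlated at a median of 0.17 over 23 pairs at day 2, 0.22 over 5 pairs at day 14, 0.40 over 6 pairs at day 35 and 0.056 over 11 pairs in batch 2. Precision rests on the spread between retinas. The 11 members with over 10% of their exon bases under another gene's exons (such as Atp5o, Ndufb6 and Ndufa13), and those with named pseudogenes (Uqcrh, Atp5k, Atp5l), could share reads with another gene and are uncertain. The values of 1 member enter the counts but are not reported here.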

Additional observations from a re-analysis of the deposited data

Results flagged for a closer look

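Of 176 groups of 4 to 10 retinas checked for a single value far from the rest (Dixon's test), 13 held one, and about 1 in 20 is expected by chance. In the WT TNF group of day 14 the left eye of mouse 59709 was above the other 5 retinas in Ndufa10 (109 CPM, others up to 94.2), Atp5b (973, others up to 811), the sum of the members (6584, others up to 5636) and the mtDNA sum (34134, others up to 29865). The left eye of mouse 59829 in that group had Ndufa4l2 at 2.74 CPM (others up to 1.35). In the PBS groups 1 retina of day 14 had an mtDNA sum of 25828 CPM (others from 30413). In the IL1A group of day 2, 1 retina had Sdha at 277 CPM (others from 318) and another Ndufa4l2 at 3.01 (others up to 2.03). In the IL1A+TNF group of batch 1, 1 retina had Ndufb2 at 33.8 CPM (others up to 30.1), and in that of batch 2, 1 had Sdha at 303 (others from 323). In Sarm1KO retinas the PBS-injected right eye of mouse 61924 had Cox4i2 at 16.9 CPM (others up to 14.6). In Sarm1KO IL1A+TNF retinas, 1 had Cox8b at 1.12 CPM (others up to 0.441) and the left eye of mouse 61926 had Ndufa4l2 at 19.7 (others up to 6.87).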

How the results depend on the processing

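Counts of called members moved with the scaling, with mouse as a fixed block, with the batch and, in Sarm1KO, with 2 retinas. Shares of all genes are given in the results for the main fits and for the fits of both batches without the 2 retinas. The other alternative counts have no such share beside them. For IL1A+TNF at day 2 (21 members, 2 higher and 19 lower), library totals gave 14 higher and 8 lower, no filter on low counts 1 higher, a filter at 1 CPM 4 higher, and edgeR 1 higher. Library totals also gave 14 members for IL1A+TNF in Sarm1KO, 28 over the PBS days, 7 for day 14 and 27 for day 35 against day 2. The filter at 1 CPM gave 5 members for day 14 and 15 for day 35, DESeq2 gave 4 for day 14, and leaving out the right eye of mouse 59710 gave 2. For Sarm1KO against WT after IL1A+TNF (1 member), library totals, no filter, 1 CPM, edgeR and DESeq2 gave 2 each, and batch 2 alone and both fits without the 2 retinas gave 0. For the IL1A by TNF interaction (0 members), library totals, 1 CPM, edgeR and DESeq2 gave 1 each, and for genotype by treatment (0 members) edgeR and DESeq2 gave 1 each. For IL1A+TNF in Sarm1KO (28), batch 2 alone gave 16, the fit without the 2 retinas 5, and batch 2 without them 0. For both batches of WT (27), batch 2 alone gave 4 and batch 2 without the 2 retinas 10. The cause of these moves was not tested, except that fewer retinas enter the reduced fits.

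With mouse as a fixed factor (replicate block), 8 members were called for IL1A+TNF at day 2 (5 of them lower), 3 for IL1A and 17 for both batches of WT. Each of these effects rests only on mice that gave a PBS eye and an eye of that treatment. Without any block the number of calls stayed within 1.5 times in every comparison that had one. The fixed block was not run for IL1A+TNF against IL1A, since no mouse had both.

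Leaving out 1 mouse at a time gave 18 to 22 members for IL1A+TNF at day 2 (1 to 5 higher, 16 to 21 lower), 3 to 5 for IL1A (3 without 60217 or 60637), 0 to 4 for IL1A+TNF against IL1A (4 without IL1A mouse 60637, 1 without IL1A+TNF mouse 60780), 0 to 1 for the interaction (1 without TNF mouse 59733 or IL1A+TNF mouse 60215 or 60780) and 0 to 0 for TNF at each day. It gave 10 (without mouse 61924) to 34 (without 61561) in Sarm1KO, 25 to 27 in WT, 0 to 4 for Sarm1KO against WT after IL1A+TNF (0 without 61924 or 61926, 2 without 61722, 61765 or 62224, 3 without 62221, 4 without 61561 or 61564), 0 to 0 after PBS and 0 to 3 for genotype by treatment (3 without 61561, 1 without 61765). Of 1715 alternative values for 66 named fold changes, 1536 kept direction and call, 175 lost the call and 4 reversed. Most of these values come from the fits that leave out 1 mouse. Many of those leave out a mouse of another treatment or genotype, so the treated retinas compared stay the same. The number kept is therefore not a count of independent checks. Sdha became 0.011 for IL1A+TNF at day 2 and 0.0067 in both WT batches under library totals, and Ndufa4l2 in Sarm1KO became -0.12 without the 2 retinas and -0.16 in batch 2 without them. Depth limits Cox6a2, Cox7b2 and Cox8c, which were too low to test.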
